A study of Mus musculus with 18 samples.

Results

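Eomes, T (Brachyury), Tbx6 and Tbx3 encode T-box transcription factors, a family of proteins that share a DNA-binding domain. The 4 genes were taken by name from the 22997 nuclear genes of the count files and were followed in single cells of mouse gastrulae: 543 cells at embryonic day 6.75 (E6.75) and 429 cells at E7.5. At gastrulation, epiblast cells leave the epithelium through the primitive streak and become mesoderm and endoderm. Eomes is known to act in the early streak, where it is needed for definitive endoderm and anterior mesoderm, and it also works in the extraembryonic ectoderm and the visceral endoderm. T is known to act throughout the streak and then in the node and notochord, and its product maintains posterior mesoderm formation together with Wnt signalling. Tbx6 is a factor of the presomitic and paraxial mesoderm that lies downstream of T and Wnt signals, and Tbx3 is known from extraembryonic tissue, lateral mesoderm and pluripotent cells.

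Both groups were untreated wild-type C57BL/6 embryos, labelled as whole embryos. The E6.75 group held 6 libraries of hand-picked cells made with CEL-Seq2 from embryos dissociated singly after the extraembryonic part had been removed. The E7.5 group held 12 libraries of cells sorted by flow cytometry, made with mCEL-Seq2 from pooled embryos of 1 or 2 litters, each cut below the chorion. Both methods tag every transcript at its 3′ end with a cell barcode and a molecular barcode, and transcripts here are molecules corrected for barcode collisions. Stage, way of collection and protocol cannot be told apart in this design, and the labels do not say which embryo a cell came from. They also do not say that libraries came from separate embryos, so p-values measure the spread between these libraries only.

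Each library used 96 well barcodes, and cells with at least 2000 nuclear transcripts were kept. The submitters state 576 cells at E6.75 and 1172 at E7.5, against 576 and 1152 used barcodes in the files. Between 85 and 96 cells were kept in each E6.75 library and between 15 and 71 in 11 of the E7.5 libraries. E7.5 replicate 5 held 3042 transcripts in all and no kept cell, so it entered no comparison. Median depth per cell ran from 22331 to 54686 transcripts over the E6.75 libraries and from 18982 to 57140 over the E7.5 libraries, so the depth ranges overlapped. Mitochondrial transcripts took between 13.7% and 18.7% in the E6.75 libraries, and the E7.5 libraries lay between 9.08% and 14.4%. Kept cells of different libraries shared between 0 and 86 well barcodes over 136 pairs of libraries; these are plate barcodes that every library reuses, so a barcode names a cell only within its library. Cells were clustered within each stage without the 4 genes, and clusters were named from marker lists that did not hold them. E6.75 libraries 2_13 and 2_14 stood apart: they held 42 of the 46 primitive streak-like cells of that stage, so results that rest on E6.75 are also given without this pair.

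The genes lie on 4 chromosomes. On the GRCm38 build of the GENCODE vM21 annotation (the build behind the deposited counts is not given in the sources used here), Eomes lies on the plus strand of chromosome 9 at 118478212 to 118486132. T lies on the plus strand of chromosome 17 at 8434423 to 8442496. Tbx6 lies on the plus strand of chromosome 7 at 126781483 to 126785560, and Tbx3 on the plus strand of chromosome 5 at 119670669 to 119684724. The annotated antisense transcript Gm33460 overlaps the 3′ end of Eomes, and Tbx3os1 overlaps the start of Tbx3. Neither is a row of the count files, and whether counting used strand is not given, so reads of these pairs cannot be told apart.

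The promoters are shown because T and Tbx6 were high in the same E7.5 cells and both genes are known to respond to Wnt signals. RefSeq windows of 250 bases before to 50 bases after the annotated start (GRCm38.p6, all plus strand) were found for 3 of the 4 genes; Tbx3 had none in the table used. The windows are chr17:8434173-8434472 for T, chr7:126781233-126781532 for Tbx6 and chr9:118477939-118478238 for Eomes, printed 5′ to 3′ with matches to a searched motif in capitals.
T: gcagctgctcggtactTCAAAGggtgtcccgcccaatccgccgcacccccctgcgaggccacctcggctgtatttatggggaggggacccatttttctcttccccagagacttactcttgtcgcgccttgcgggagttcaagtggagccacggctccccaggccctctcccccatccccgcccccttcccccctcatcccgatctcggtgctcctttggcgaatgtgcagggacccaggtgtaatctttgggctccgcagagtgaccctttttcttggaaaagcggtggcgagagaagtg
Tbx6: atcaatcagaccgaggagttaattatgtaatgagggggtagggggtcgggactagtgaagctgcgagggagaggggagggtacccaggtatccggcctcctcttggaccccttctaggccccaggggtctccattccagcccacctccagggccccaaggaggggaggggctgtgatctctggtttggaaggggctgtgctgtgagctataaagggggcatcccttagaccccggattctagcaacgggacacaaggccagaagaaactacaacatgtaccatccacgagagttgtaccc
Eomes: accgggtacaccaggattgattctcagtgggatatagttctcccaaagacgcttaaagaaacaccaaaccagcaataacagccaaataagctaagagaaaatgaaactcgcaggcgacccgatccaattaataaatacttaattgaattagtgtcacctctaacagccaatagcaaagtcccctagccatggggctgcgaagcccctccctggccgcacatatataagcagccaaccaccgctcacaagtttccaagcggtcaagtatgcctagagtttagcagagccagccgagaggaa
The searched motifs were the T-box core GGTGTGA and the TCF/LEF core CTTTGA, each on both strands (TCACACC and TCAAAG), with no overlap between them. The T window held 1 match, the TCF/LEF core on the opposite strand (TCAAAG), beginning at base 17 of the window, 234 bases before the start. Neither the Tbx6 nor the Eomes window held either core. The TCF/LEF core occurs in 16.0% of the 32851 windows in the table and the T-box core in 3.98%. A match is a description of the letters and not a binding site. The windows also differed in base composition, with 61.7% G or C in T, 57.7% in Tbx6 and 47.3% in Eomes.

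T, Tbx6 and Tbx3 were higher at E7.5 than at E6.75, and the change of Eomes in the other direction did not pass the test. Levels are given as transcripts of a gene per 1000000 nuclear transcripts (CPM) after adding up the kept cells of a library, and in such sums fewer cells with a gene and fewer transcripts per cell cannot be told apart. Because counting from 3′ ends depends on each transcript's own end, levels are compared between libraries for 1 gene and not between genes.

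Eomes, the early streak factor, had a lowest, median and highest library level of 120, 232 and 503 CPM at E6.75 and of 12.4, 112 and 336 CPM at E7.5. The ranges overlapped; library 1_11 was the lowest and 2_13 the highest at E6.75, and replicates 7 and 6 were the lowest and highest at E7.5. The means were 272 ± 146 CPM (SD, n = 6) and 136 ± 121 CPM (SD, n = 11), a log2 change of -1.11 (SE 0.49) with an adjusted p of 0.0757. Here and in the comparisons over all genes below, the test is edgeR's quasi-likelihood test with Benjamini-Hochberg adjustment over all genes tested, and a gene passed at an adjusted p under 0.05. Without the pair 2_13 and 2_14 the log2 change of Eomes was -0.60 (edgeR adjusted p 0.423), and without E7.5 replicate 6, 9 or 10 it was -1.36, -1.29 or -1.28 and passed (adjusted p 0.0302, 0.0379 and 0.0442). Eomes was found in 444 of 543 cells (81.8%) at E6.75 and in 198 of 429 (46.2%) at E7.5.

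T, the streak and notochord factor, had a lowest, median and highest library level of 18.4, 24.0 and 160 CPM at E6.75 and of 127, 412 and 1003 CPM at E7.5. The ranges met only through 2_13 (160 CPM) and 2_14 (159 CPM), which lay above the lowest E7.5 library, replicate 12. The means were 67.3 ± 71.4 CPM (SD, n = 6) and 435 ± 287 CPM (SD, n = 11), a 6.20-fold rise (log2 2.63, SE 0.54, edgeR adjusted p 0.000633). With the pair left out the log2 rise was 4.26. T was found in 156 cells (28.7%) at E6.75 and in 283 (66.0%) at E7.5.

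Tbx6, the presomitic factor, was close to undetected at E6.75, with 0, 0.477 and 1.94 CPM as the lowest, median and highest library and 22 transcripts in 15 of the 543 cells (2.76%). At E7.5 the library values were 20.3, 48.3 and 88.7 CPM, and 130 of 429 cells (30.3%) held it. Every E7.5 library lay above every E6.75 library, which held for no other member. The means were 0.771 ± 0.765 CPM (SD, n = 6) and 43.5 ± 23.4 CPM (SD, n = 11), a 45.6-fold rise (log2 5.51, SE 0.46, edgeR adjusted p 1.19e-08). Tbx6 passed the filter on low counts through E7.5 alone, so only a rise could have been found. T and Tbx6 shared their extreme E7.5 libraries: replicate 1 was the highest and replicate 12 the lowest for both.

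Tbx3 had 1.65, 4.73 and 16.1 CPM as the lowest, median and highest library at E6.75 and 0, 28.3 and 64.0 CPM at E7.5. The ranges overlapped, because replicate 8 at E7.5 held no Tbx3 transcript in its 15 cells and 2_14 was high at E6.75. The means were 7.21 ± 6.12 CPM (SD, n = 6) and 32.1 ± 21.7 CPM (SD, n = 11), a 3.83-fold rise (log2 1.94, SE 0.48, edgeR adjusted p 0.00296). Cells with Tbx3 numbered 65 (12%) at E6.75 and 98 (22.8%) at E7.5.

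**Figure D1:**
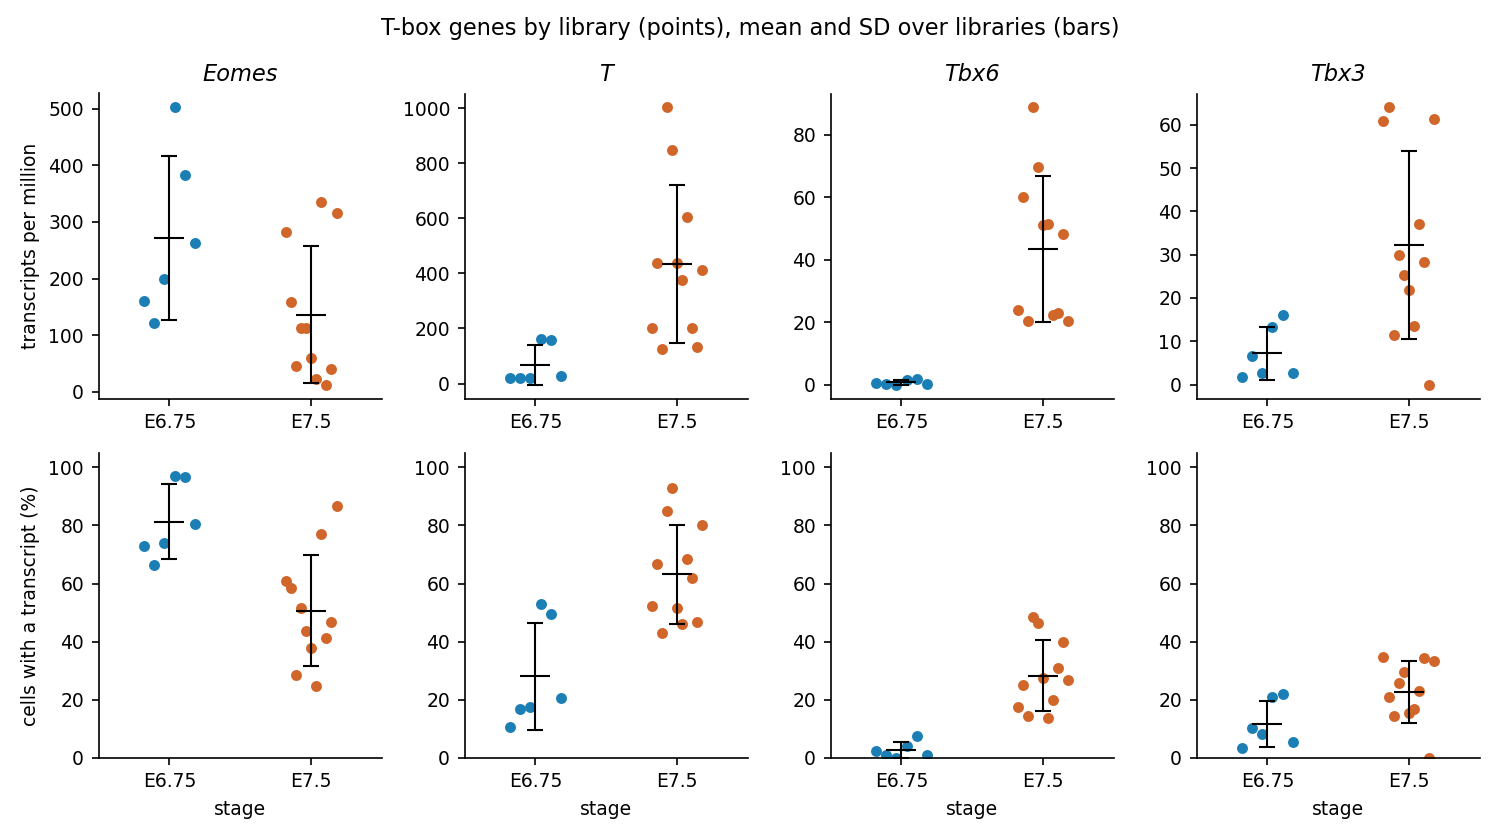
Level of each of the 4 genes in CPM of the library's summed cells (upper row, linear axes that differ between genes) and share of cells with at least 1 transcript in percent, without thinning (lower row), with a point for each of 6 E6.75 and 11 E7.5 libraries and bars for the mean and SD. In the upper row Tbx6 is the gene whose stages do not overlap, and T overlaps through the 2 highest E6.75 libraries.

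These changes were read against a stage comparison in which a large part of all genes moved. Of 9998 genes tested between stages, 38.8% passed, 20% higher and 18.8% lower at E7.5, and 8.24% had library ranges that did not overlap. The 3 members that passed are therefore not set apart by passing alone. To compare detection at 1 depth, every cell was thinned to 2000 transcripts. The mean share of cells with the gene per library was then 13.5% at E7.5 against 31.7% at E6.75 for Eomes (exact permutation test, two-sided, p = 0.0333). It was 28.5% against 8.21% for T (p = 0.00323), 7.20% against 0.524% for Tbx6 (p = 0.00452) and 4.95% against 1.61% for Tbx3 (p = 0.0226, all by the same exact permutation test). Adjusted over these 4 tests the p-values were 0.0333, 0.00905, 0.00905 and 0.0302. The unthinned shares were 50.7% against 81.3%, 63.2% against 28.0%, 28.3% against 2.68% and 22.6% against 11.7% in the same order. The fall in the share of Eomes cells rested on the pair: it was -10.0 percentage points without 2_13 and 2_14 (exact permutation p 0.232), and it also lost its call without 2_9 alone (-18.5 points, p 0.0504), 2_13 alone (-13.9 points, p 0.0893) or 2_14 alone (-15.9 points, p 0.0774). The rise in the share of Tbx3 cells was lost without 1_10 or without 2_9 (3.02 points, exact permutation p 0.0545 for each), and at 1000 transcripts per cell it was -0.258 points.

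Many of the transcripts of each gene were held by few cells. The 10% of cells with the most Eomes held 55.9% of its transcripts at E6.75 and 74.3% at E7.5. For T the order was the reverse, with 90.4% in the top 10% at E6.75 and 60.6% at E7.5. For Tbx6 the top 10% held 72.3% at E7.5; at E6.75 the 15 cells with Tbx6 were fewer than the 55 cells of the top 10%. For Tbx3 it held 95% and 80.2%, with 65 cells positive at E6.75. The highest cell held 181 Eomes transcripts at E6.75 and 86 at E7.5, 113 and 186 T transcripts, 4 and 30 Tbx6 transcripts, and 22 and 29 Tbx3 transcripts. Among cells with Tbx6 at E6.75, 73.3% held a single transcript, so the combinations given below for that stage rest on 1 molecule in most Tbx6 cells.

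At E6.75 all 4 genes were found in the primitive streak-like class, and at E7.5 Tbx6 and Tbx3 were highest in different named classes. A class is called by the markers it held, and its name ends in "-like". The values below describe clusters in which the 4 genes were not used. Shares depend on depth, and median depths are given for some of the classes. At E6.75 the 46 primitive streak-like cells (led by Mixl1, Mesp1, Sp5 and Snai1) all held Eomes and T, 22 held Tbx3 (47.8%) and 10 held Tbx6 (21.7%). Over their summed transcripts the levels were 1060 CPM for Eomes, 544 for T, 39.1 for Tbx3 and 6.15 for Tbx6. The 160 epiblast-like cells held Eomes in 85.0%, T in 19.4% (31 cells) and Tbx3 in 3 cells (1.88%). Tbx6 was found in 0 of these 160 cells, which allows a share of up to 1.88%. The Eomes level of the epiblast-like class was 117 CPM, against 1060 CPM in the streak-like cells. The mean log2 difference of epiblast markers from the other cells was 0.12, 0.35 and 0.37 in the clusters of this class. It was 0.36 in a cluster of 50 cells that stayed unnamed. In all, 282 of the 543 cells lay in unnamed clusters, with Eomes in 75.5% (239 CPM) and T in 26.2% (36.2 CPM). The named classes therefore describe a part of the stage.

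Although the extraembryonic part had been removed, the E6.75 libraries held 41 cells like visceral endoderm and 14 like extraembryonic ectoderm, here called the 2 extraembryonic classes. Eomes was present in 35 of the 41 visceral endoderm-like cells (338 CPM over the class) and in all 14 extraembryonic ectoderm-like cells (603 CPM). T was rare in both, in 3 and 2 cells, and Tbx6 was in none (0 of 41 allows up to 7.32%). Tbx3 was in 14 visceral endoderm-like cells (34.1%, 46.1 CPM over the class) and 5 extraembryonic ectoderm-like cells (35.7%, 11.6 CPM). The streak-like class had a larger share (47.8%) but a lower level (39.1 CPM) than the visceral endoderm-like class. Median depths of the streak-like and visceral endoderm-like cells were 62764 and 24756 transcripts, so the shares alone do not rank them. Of the 65 Tbx3 cells of E6.75, 22 were streak-like, 19 were of these 2 extraembryonic classes, 3 were epiblast-like and 21 lay in unnamed clusters.

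Among the named E7.5 classes, Eomes and T were both highest in the node and notochord-like cells. Tbx6 was highest in the paraxial mesoderm-like class and Tbx3 in the extraembryonic and lateral mesoderm-like class. Eomes was at 399 CPM in the 13 node and notochord-like cells (8 with the gene), 99.6 CPM in the 108 paraxial mesoderm-like cells, 97.1 CPM in the 43 streak-like cells and 37.2 CPM in the 15 definitive endoderm-like cells. The 93 cells of unnamed clusters held Eomes at 249 CPM. Among them, a cluster of 18 cells led by Mixl1, Mesp1 and Tdgf1 held it at 644 CPM, in 16 cells. That level was above the one of the node and notochord-like cells. T was highest in the node and notochord-like cells, at 3137 CPM with all 13 positive, then in the streak-like cells (1309 CPM, 42 of 43 cells) and the paraxial mesoderm-like cells (905 CPM, 80.6%). In the 83 epiblast-like cells T was in 26.5% at 15.7 CPM, with a lower median depth of 17412 transcripts.

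Tbx6 was highest in the paraxial mesoderm-like cells, at 143 CPM with 68 of 108 cells (63.0%), and was at 50.4 CPM in the streak-like cells (48.8%) and 83.8 CPM in the node and notochord-like cells (8 of 13). The paraxial class joined 2 clusters that differed in all of these genes. The cluster of 52 cells led by Aldh1a2, Dll1 and Hoxb1, genes of the forming presomitic mesoderm, held T in 96.2% and Tbx6 in 86.5% of cells, at 277 CPM of Tbx6, and Tbx3 in 5.77%. The cluster of 56 cells led by Foxc2, Alx1, Myl7, Adrb3 and Twist1 held T in 66.1%, Tbx6 in 41.1% and Tbx3 in 23.2%. Its markers were mixed: Myl7 is on the cardiac progenitor list and Twist1 on the extraembryonic and lateral mesoderm list. The mean log2 difference of markers from the other cells was 1.35 for paraxial mesoderm and 0.596 for cardiac progenitor, the next class.

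Tbx3 was highest in the 58 extraembryonic and lateral mesoderm-like cells (Hand1, Bmp4, Msx2), where 46 cells held it (79.3%) at 125 CPM, and it was in 11 of 16 blood and endothelial progenitor-like cells (68.8%, 31.5 CPM). Of the streak-like cells 4 of 43 held Tbx3 (9.30%), and 22 of 46 at E6.75, at median depths of 28421 and 62764 transcripts. With cells thinned to 2000 transcripts the shares were 0% and 2.2%, so no difference between stages is read from them. No node and notochord-like cell held it (0 of 13, which allows a share of up to 23.1%). Eomes was in 9 of the 58 extraembryonic and lateral mesoderm-like cells (15.5%, 5.38 CPM), the lowest Eomes level of the named E7.5 classes.

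**Figure D2:**
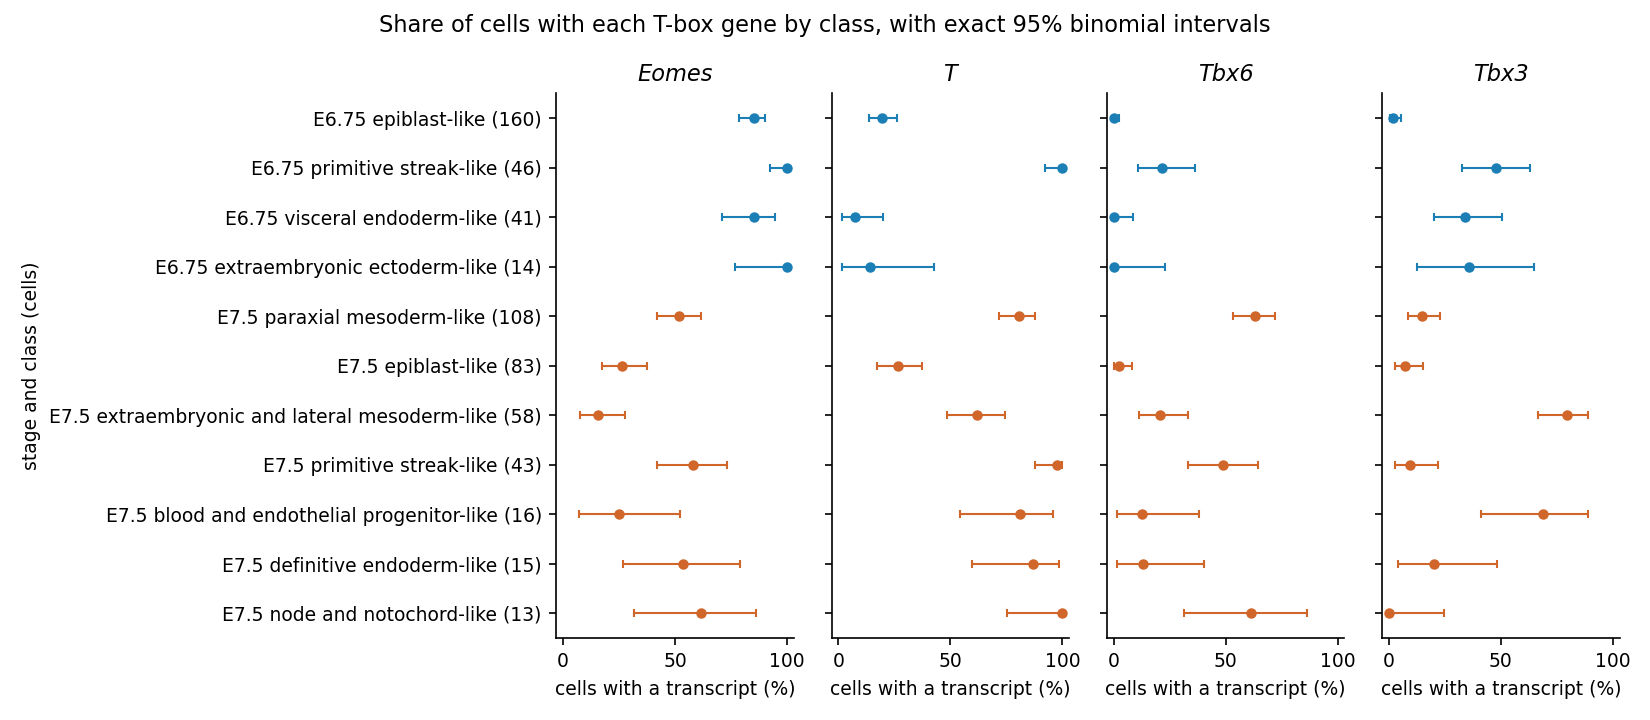
Share of cells with at least 1 transcript of each gene (percent) in the named cell classes of each stage (number of cells in brackets), with the exact 95% binomial interval, which covers counting error only. At E6.75 the streak-like class holds all 4 genes, and at E7.5 Tbx6 peaks in paraxial mesoderm-like cells and Tbx3 in extraembryonic and lateral mesoderm-like cells.

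The combinations of the 4 genes were counted in single cells. At E6.75 the 2 extraembryonic classes were left out, and 488 cells remained. Of these, 238 held Eomes alone (48.8%), 106 held Eomes and T (21.7%), 29 held Eomes, T and Tbx3 (5.94%) and 7 held all 4 genes. No member was found in 86 cells (17.6%), whose median depth was 9437 transcripts. T without Eomes was found in 6 cells, and Tbx6 without Eomes in none.

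Stated as shares, 145 of the 151 T cells held Eomes (96.0%, exact 95% interval 91.6% to 98.5%), against 250 of 337 cells without T (74.2%). In the other direction, 145 of 395 Eomes cells held T (36.7%). All 15 Tbx6 cells held Eomes (100%, exact interval 78.2% to 100%), and 37 of 46 Tbx3 cells held T (80.4%) against 114 of 442 cells without Tbx3 (25.8%). The intervals cover counting error only, and cells of 1 library are not independent, so the test of these pairs over libraries is given below.

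At E7.5 the same genes were spread over more combinations. Of 429 cells, 66 held Eomes, T and Tbx6 (15.4%), 64 held T alone (14.9%), 57 held Eomes and T (13.3%), 36 held Eomes alone, 27 held T and Tbx6, 26 held T and Tbx3, and 22 held Tbx3 alone. All 4 genes were found together in 9 cells, Tbx6 alone in 8 and Tbx6 with Tbx3 alone in 0. No member was found in 69 cells (16.1%, median depth 11199 transcripts). Of the Tbx6 cells, 117 of 130 held T (90.0%, exact 95% interval 83.5% to 94.6%) against 166 of 299 cells without Tbx6 (55.5%). Of the T cells, 117 of 283 held Tbx6 (41.3%) and 151 held Eomes (53.4%), against 13 (8.90%) and 47 (32.2%) of 146 cells without T. Tbx3 cells held Eomes in 35 of 98 (35.7%) against 163 of 331 without Tbx3 (49.2%), and held T in 70.4% against 64.7%.

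**Figure D3:**
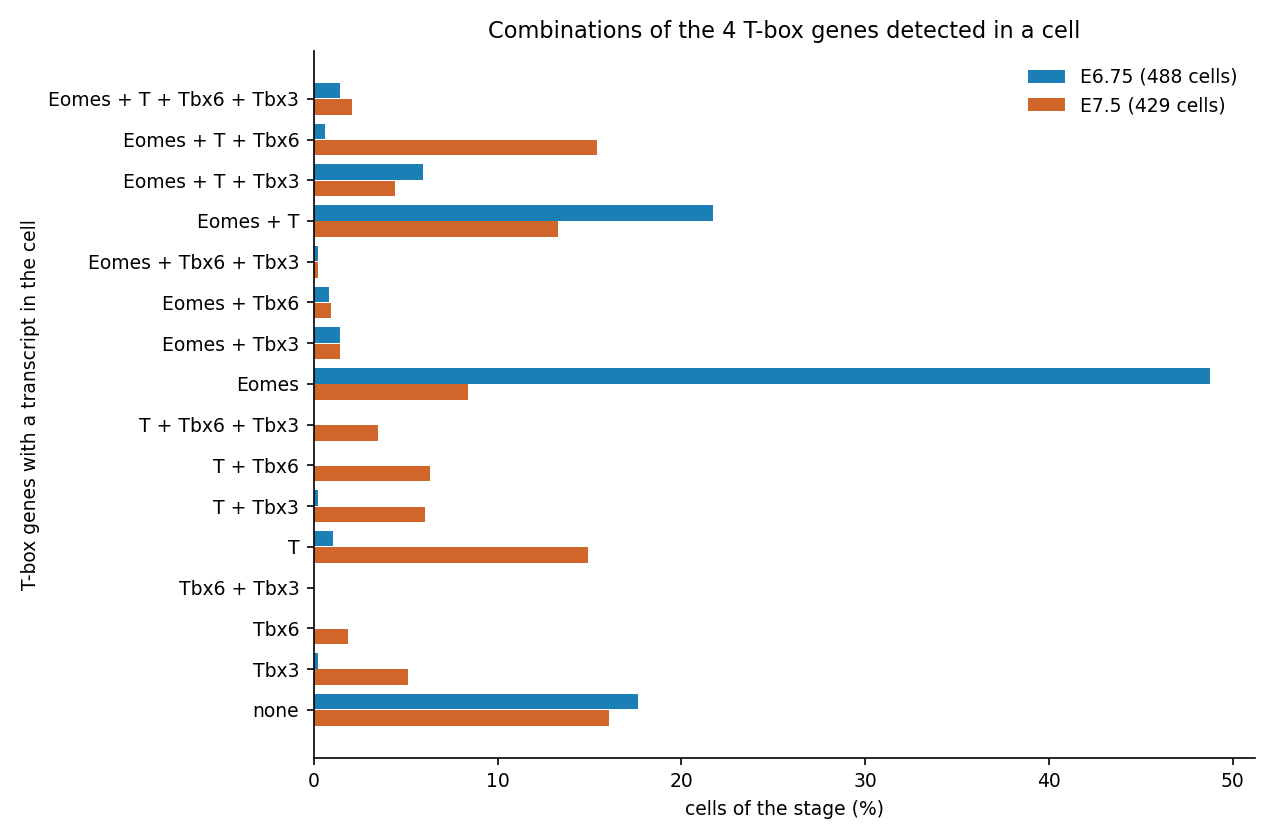
Share of cells (percent) in each combination of the 4 genes at E6.75 (488 cells, without the 2 extraembryonic classes) and E7.5 (429 cells). Eomes alone and Eomes with T lead at E6.75, and no combination passes 16.1% at E7.5.

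Whether 2 genes met in a cell more often than their separate shares give was tested over libraries, for 6 pairs at each stage. The measure is the log2 ratio of the cells that held both to the number the 2 shares give within the library, and the test is an exact permutation of signs over libraries, two-sided, with Benjamini-Hochberg adjustment over the 12 tests. At E7.5 T and Tbx6 met more often in 11 of 11 libraries, with a mean log2 ratio of 0.44 ± 0.23 (SD, n = 11, exact permutation p = 0.000977, the smallest possible, adjusted p 0.0117). With all cells thinned to 10000 transcripts it was 0.64, again in 11 of 11 libraries, and with a threshold of 2 transcripts for each gene it was 0.84. Eomes and Tbx6 met more often in 10 of 11 libraries, by 0.32 ± 0.29 (exact permutation, adjusted p 0.0176). This pair depended on depth: with cells thinned to 10000 transcripts the ratio was 0.11 and did not pass, and at 2000 transcripts it was -0.27.

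The other 4 pairs at E7.5 did not pass. Eomes and T gave 0.17 ± 0.23 (higher in 9 of 11 libraries, exact permutation, adjusted p 0.0898), and Eomes and Tbx3 gave -0.30 ± 0.48 (lower in 7 of 10 libraries, adjusted p 0.107). T and Tbx3 gave 0.03 ± 0.31 and Tbx6 and Tbx3 -0.49 ± 0.92. At E6.75 no pair passed. Eomes and T met more often in 6 of 6 libraries by 0.23 ± 0.21 (exact permutation p = 0.03125, the smallest that 6 libraries allow, adjusted p 0.0938). T and Tbx3 gave 0.71 ± 0.68, higher in 5 of 6 libraries (exact permutation, adjusted p 0.141).

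The difference between stages was tested by permuting libraries between stages (two-sided, adjusted over the 6 pairs). Eomes and Tbx3 had a log2 ratio of 0.21 at E6.75 and -0.30 at E7.5, neither past the threshold alone, and the difference of -0.51 passed (permutation test, adjusted p 0.0330). Without 2_13 and 2_14 it was -0.61 (adjusted p 0.0120). It did not pass when only the 4 E6.75 libraries whose names begin with 2 were used (-0.48, adjusted p 0.0839). With cells thinned to 2000 transcripts, where 2 E6.75 libraries gave a value, it also did not pass (-0.76, adjusted p 0.5). Outside the 2 extraembryonic classes, E6.75 libraries other than 2_13 and 2_14 held between 1 and 5 Tbx3 cells each, so their ratios rest on few cells. In 2_13 and 2_14 Eomes was in 82 of 84 and 85 of 88 cells, so their ratios had little room to rise. T and Tbx3 differed by -0.68 (adjusted p 0.0652), T and Tbx6 by 0.48 (adjusted p 0.0934) and Tbx6 and Tbx3 by -0.98 (adjusted p 0.104), none past the threshold.

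**Figure D4:**
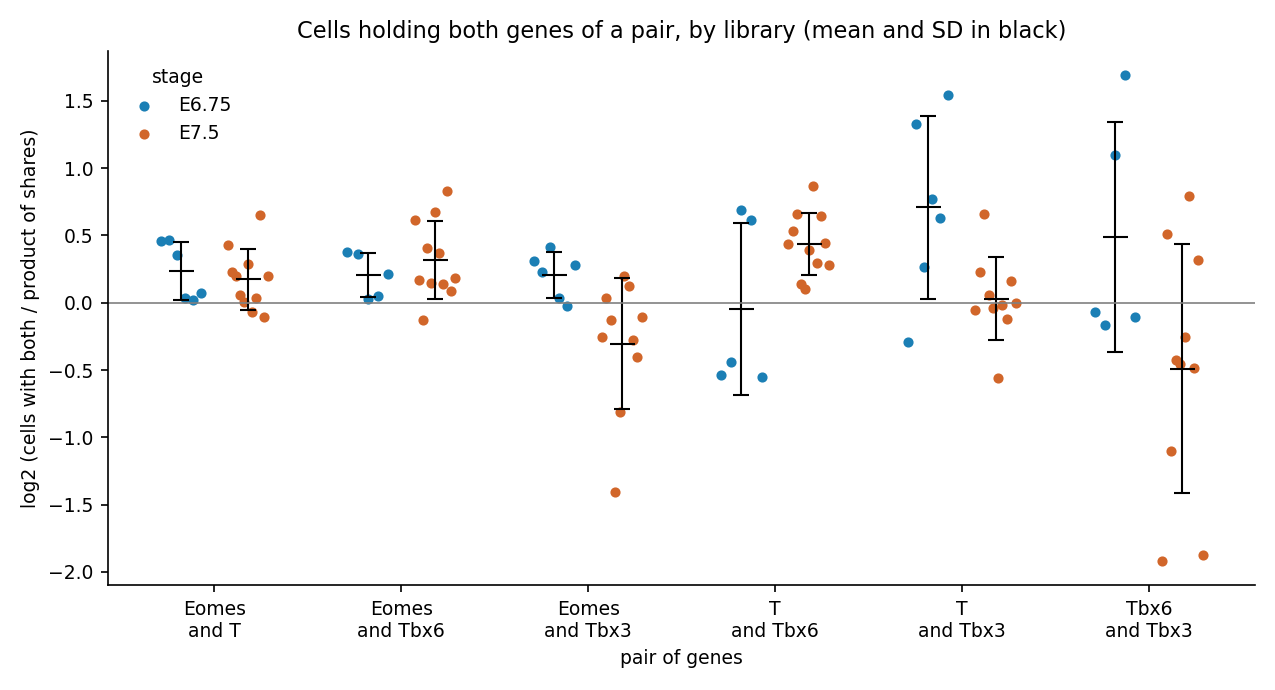
Log2 ratio of observed to expected cells holding both genes of a pair, 1 point per library, with the mean and SD, for 6 pairs at each stage; 0 is the number the separate shares give. T with Tbx6 lies above 0 in all 11 E7.5 libraries, and Eomes with Tbx3 lies above 0 in 5 of 6 E6.75 libraries and below 0 in 7 of 10 at E7.5.

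Levels in cells with and without another member are given as a description. At E7.5 a Tbx6 cell held on average 10.3 T transcripts per 10000 and a cell without Tbx6 held 2.48, higher in 11 of 11 libraries. A T cell held 0.604 Tbx6 transcripts per 10000 against 0.114 without T, also in 11 of 11 libraries, and 1.47 Eomes transcripts against 0.704, in 11 of 11. At E6.75 a T cell held 4.73 Eomes transcripts per 10000 against 1.28 in cells without T, in 6 of 6 libraries. Tbx3 cells at E7.5 held 2.39 T transcripts per 10000 against 5.94 without Tbx3, and were the higher ones in 1 of 10 libraries.

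To see what else differed when a second member joined the first, cells with Eomes were split by T at E6.75. Within each of 6 libraries the 145 Eomes and T cells and the 250 cells with Eomes but no T were added up and compared with the library as a block. Of the lists counted below, the streak partners mostly rose with T and the pluripotency and ectoderm genes mostly fell; most genes that passed are in no list. Of 9267 genes tested 3.52% passed, 1.96% higher and 1.55% lower in the cells with T. Median depth of the cells with T was between 0.730 and 3.33 times that of the cells without, by library.

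Eomes itself was at 263, 431 and 781 CPM in the lowest, median and highest library of cells with T and at 84.1, 130 and 230 CPM in cells without T. All 6 libraries showed the higher level with T and the ranges did not overlap, a log2 difference of 1.78 (SE 0.17) that is given as a description because Eomes was required in every cell. Tbx6 and Tbx3 had too few transcripts to be tested here.

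Of 13 streak partners tested, 12 rose and 1 fell, with a median log2 difference of 2.09 against -0.00 over all genes. Here and below, counts and medians of lists describe the genes that passed the filter on low counts; a gene that passed it only through the side where it is high could move only one way, so they support no direction. Sp5, a Wnt target that encodes a zinc-finger factor, rose by 3.99. Evx1, a homeobox factor of the posterior streak, rose by 3.27, Wnt3, the ligand needed to form the streak, by 2.72, and Snai1, a repressor of epithelial genes, by 2.56. Fst, which encodes the activin antagonist follistatin, was at 206 ± 81.6 CPM with T and 36.4 ± 11.3 CPM without (SD, n = 6), a log2 rise of 2.52 (edgeR adjusted p 9.04e-10), and its ranges did not overlap. The endoderm and axial factors Foxa2 and Gsc rose by 2.13 and 2.09, the homeobox gene Msx1 by 2.30, the Nodal co-receptor gene Tdgf1 by 1.10 and Nanog by 1.10.

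Of 11 pluripotency and ectoderm genes, 7 fell and 1 rose (median -0.36). Sox3 and Utf1 each fell by 0.92 on the log2 scale, Pou3f1 by 0.82, Otx2 by 0.49 and the DNA methyltransferase gene Dnmt3b by 0.36, and outside the list the amino acid transporter gene Slc7a3 fell by 0.92. Of the presomitic genes 1 of 3 tested rose (median 0.59), of the lateral and extraembryonic mesoderm genes 2 of 3 (median 1.54) and of the endoderm and axial genes 2 of 3 (median 2.09). Visceral endoderm markers summed to between 144 and 178 CPM with T and between 113 and 296 CPM without, all 12 of 12 found on both sides. The number of genes passed fell from 326 to 207 without 2_13 and to 174 without 2_14, and to 104 without both, of which 95 were among the 326.

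At E7.5 the T cells with Eomes differed from those without it in few genes. The 129 and 130 cells came from 9 libraries, and of 6133 genes tested 0.0815% passed, 0.0815% higher and 0% lower in the cells with Eomes. With edgeR 309 of the 6133 genes had an unadjusted p under 0.05, 158 lower and 151 higher. That is about the share this threshold gives where nothing differs, so these genes are not read as changed. DESeq2 called 5 higher and 1 lower. The 5 genes were Tdgf1, Sp5, Apln, Prickle1 and Pmaip1; the last was named after its values were seen. Tdgf1 rose by 2.69 (edgeR adjusted p 0.00105, but 0.166 by DESeq2), with 7.51, 55.6 and 483 CPM as lowest, median and highest library against 0, 15.8 and 66.8 CPM, higher in 8 of 9 libraries. Sp5 rose by 1.51 (edgeR adjusted p 0.00833), from a median of 39.2 CPM to 142 CPM, in 8 of 9 libraries.

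Apln, which encodes the peptide ligand of the apelin receptor, rose by 1.35 (edgeR adjusted p 0.0436), Prickle1, a gene of planar cell polarity, by 1.05 (adjusted p 0.0151), and Pmaip1, a cell death gene, by 1.26 (adjusted p 0.0436). Without replicate 2 or 11 Tdgf1 did not pass the filter on low counts. Apln kept its call only without replicate 12 or 3; its highest adjusted p was 0.218, without replicate 1. Prickle1 lost it without replicate 2 (adjusted p 0.322) and 11 (0.0678). Between 1 and 8 genes passed with 1 library left out, with 1 left without replicate 2 or 11, 3 without 1, 4 or 6, and 8 without 3. Tbx6 was at 22.6, 68.0 and 153 CPM with Eomes and at 0, 45.1 and 162 CPM without, a log2 difference of 0.66 (SE 0.32, edgeR adjusted p 0.983) with wide overlap. Of the lists, 2 of 15 streak partners rose (median 0.59), and none of 11 presomitic (0.16), 11 pluripotency and ectoderm (0.40), 9 lateral and extraembryonic mesoderm (-0.86) or 3 endoderm and axial genes passed.

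T cells at E7.5 that also held Tbx6 showed more presomitic genes and more T. In 11 libraries 117 T cells with Tbx6 were compared with 166 without, and 2.43% of 5021 genes passed, 1.61% higher and 0.817% lower with Tbx6. T was at 299, 973 and 1645 CPM with Tbx6 and at 47.1, 209 and 554 CPM without, higher in 11 of 11 libraries although the ranges overlapped. Its log2 difference was 1.89 (SE 0.20), again a description because every cell had to hold T. Eomes was at 6.85, 104 and 571 CPM against 16.2, 70.6 and 464 CPM, a log2 difference of 0.14 (SE 0.35, edgeR adjusted p 0.973), and it turned to -0.13 without replicate 1 and -0.11 without replicate 3.

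Of 9 presomitic genes tested 7 rose and none fell, with a median of 1.87 against -0.01 over all genes. Dll1, a Notch ligand of the presomitic mesoderm, rose by 3.37, from a median of 6.72 CPM to 121 CPM, and Dll3, another Notch pathway ligand, rose by 2.30 in 11 of 11 libraries. Aldh1a2, the retinoic acid synthesis enzyme, rose by 2.36, the protocadherin gene Pcdh19 by 1.91 and the forkhead gene Foxc1 by 1.87. Of 14 streak partners 6 rose (median 0.88), among them the Nodal inhibitor gene Lefty2 by 2.40, the Wnt agonist gene Rspo3 by 1.31, Fst by 1.29 and Sp5 by 1.28. The Hox gene Hoxb1 rose by 2.05 and Gas1 by 1.63.

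Lower with Tbx6 were 2 of 8 pluripotency and ectoderm genes (median -0.68): Otx2, an anterior homeobox factor, fell by 1.81 and Sox2 by 1.40. Podxl fell by 1.74 in 11 of 11 libraries and the tight junction gene Cldn6 by 1.46. None of 7 lateral and extraembryonic mesoderm genes (median -0.43) and none of 2 endoderm and axial genes (median -0.81) passed. Without replicate 2 the number of genes passed was 75 in place of 122. Cells with Tbx6 were the deeper ones in 9 of 11 libraries, with a ratio of median depths from 0.639 to 2.59, and its part in these differences was not tested. Visceral endoderm markers summed to 149, 180 and 602 CPM with Tbx6 and to 134, 228 and 2151 CPM without, and Apob and Afp were at 0 with Tbx6.

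Eomes and T were higher in Tbx3 cells at E6.75, and Eomes, T and Tbx6 were lower in them at E7.5. At E6.75 the 65 Tbx3 cells were compared with the 478 other cells in 6 libraries. Of 9501 genes tested 4.12% passed, 3.02% higher and 1.09% lower in Tbx3 cells. Eomes was at 154, 478 and 972 CPM in Tbx3 cells and at 116, 218 and 375 CPM in the others, higher in 6 of 6 libraries (log2 0.94, SE 0.15, edgeR adjusted p 0.00126). T was at 0, 72.1 and 449 CPM against 15.7, 19.2 and 97.2 CPM, higher in 5 of 6 libraries (log2 2.04, SE 0.22, edgeR adjusted p 5.35e-05). Both rested on libraries 2_13 and 2_14: without this pair the log2 differences were 0.79 (edgeR adjusted p 0.0560) and 1.39 (adjusted p 0.127).

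Visceral endoderm markers moved with Tbx3 at this stage. Their sum was 1040, 1935 and 8940 CPM in Tbx3 cells against 240, 331 and 1122 CPM in the others, with 12 of 12 markers found on both sides. Extraembryonic ectoderm markers summed to 15.5, 275 and 584 CPM against 8.52, 21.2 and 106 CPM. With the cells of both extraembryonic classes left out, the visceral endoderm sum was 161, 201 and 819 CPM against 121, 141 and 253 CPM. T then stood at a log2 difference of 2.37 (edgeR adjusted p 3.87e-09) and Eomes at 1.01 (adjusted p 0.0005). In that setting 173 genes passed in place of 391, of which 118 were shared. The fit then held 5 libraries, because 1_10 kept 1 Tbx3 cell, and 2_13 and 2_14 gave 14 and 19 of the Tbx3 cells.

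Most genes higher in Tbx3 cells at E6.75 are in none of the lists. Of 17 streak partners 10 rose and none fell (median 1.38 against -0.02 over all genes), among them Rspo3 by 2.29, Sp5 by 2.07 and the endoderm factor gene Sox17 by 2.35. Of 9 lateral and extraembryonic mesoderm genes 6 rose (median 2.48). The GATA factor gene Gata4 rose by 3.48 and still by 3.62 without the extraembryonic cells and 3.55 without the library pair, Msx2 by 3.27 and Gata6 by 2.58. Bmp4, the ligand made in extraembryonic ectoderm and mesoderm, rose by 2.48 but had 0.36 (adjusted p 0.888) without the extraembryonic cells. Ttr, which encodes the thyroid hormone carrier transthyretin, rose by 3.16 and stood at 0.86 (adjusted p 0.498) in that setting. Of 4 presomitic genes 1 rose (median 0.60), and of 4 endoderm and axial genes 1 rose and 1 fell (median -0.10).

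Of 11 pluripotency and ectoderm genes 4 fell in Tbx3 cells and none rose (median -0.42): Dnmt3b by 0.85, Utf1 by 0.84, Fgf5 by 0.72 and Otx2 by 0.62. Utf1 (-0.51, adjusted p 0.124) and Fgf5 (-0.50, adjusted p 0.228) did not pass without 2_13 and 2_14. Outside the list, Foxd3 fell by 1.52 and Slc7a3 by 1.31, each in 6 of 6 libraries. The number of genes passed was 218 without 2_13 and 257 without 2_14, and 173 without both, of which 140 were among the 391.

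At E7.5 the 98 Tbx3 cells were compared with 316 cells of the same 10 libraries, and 9.09% of 6703 genes passed, 4.59% higher and 4.49% lower in Tbx3 cells. All other members were lower in Tbx3 cells. T was at 49.5, 196 and 505 CPM against 141, 500 and 1333 CPM, lower in 9 of 10 libraries (log2 -1.47, SE 0.25, edgeR adjusted p 0.000224). Tbx6 was at 0, 16.1 and 35.5 CPM against 24.0, 46.8 and 119 CPM, lower in 10 of 10 libraries (log2 -1.80, SE 0.26, edgeR adjusted p 3.45e-05). Eomes was at 4.81, 27.0 and 279 CPM against 16.2, 141 and 387 CPM, lower in 8 of 10 (log2 -1.03, SE 0.31, edgeR adjusted p 0.0380).

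The Eomes difference was close to the threshold: leaving out replicate 1, 2, 3, 6, 7 or 9 ended its call, with a log2 difference of -0.73 (adjusted p 0.0939) without replicate 1 and -0.78 (adjusted p 0.171) without replicate 2. Those of T and Tbx6 kept their call without any 1 library. Visceral endoderm markers summed to 153, 251 and 4329 CPM in Tbx3 cells and to 147, 244 and 408 CPM in the others, so the medians were close and 1 library was high.

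Of 13 lateral and extraembryonic mesoderm genes 11 rose with Tbx3 at E7.5 and none fell (median 3.02 against 0.00 over all genes). Hand1, a basic helix-loop-helix factor of extraembryonic and cardiac mesoderm, rose by 3.47, from a median of 38.5 to 358 CPM without overlap between the ranges. Foxf1, a forkhead factor of lateral mesoderm, rose by 3.38, Msx2 by 3.32, Msx1 by 3.10, the VEGF receptor gene Kdr by 3.06 and Bmp4 by 3.02. Tbx20, a T-box gene of cardiac and extraembryonic mesoderm, was at 75 ± 33.2 CPM in Tbx3 cells and 4.73 ± 4.03 CPM in the others (SD, n = 10), a log2 rise of 3.83 in 10 of 10 libraries.

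All 12 pluripotency and ectoderm genes tested were lower with Tbx3 (median -1.48): Utf1 fell by 2.50, Pou3f1 by 2.24, Sox2 by 2.22 and Sox3 by 1.59. Streak partners divided, with 4 of 14 higher and 5 lower (median -0.38): Cdx2, a caudal homeobox factor, rose by 1.11, while Fst fell by 1.95, Sp5 by 1.78, Lefty2 by 1.69 and Sp8 by 1.39. Of 9 presomitic genes 1 fell, Dll1 by 1.28 (median -0.53), and of 2 endoderm and axial genes none passed (median -1.14).

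The difference between stages was tested as the interaction of Tbx3 and stage in 1 model, added after the values were seen. Of 8347 genes 1.86% passed. The difference between E7.5 and E6.75 in the log2 change with Tbx3 was -3.54 for T (SE 0.43, edgeR adjusted p 1.94e-05) and -1.97 for Eomes (SE 0.39, adjusted p 0.00477). Without the cells of both extraembryonic classes the values were -3.87 and -2.06. Without 2_13 and 2_14 T had -3.04 (adjusted p 0.0254) and Eomes -1.82 (adjusted p 0.0555), which did not pass. Tbx6 had 22 transcripts in all at E6.75 and could not be tested with Tbx3 there, so no difference between stages is read for it.

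**Figure D5:**
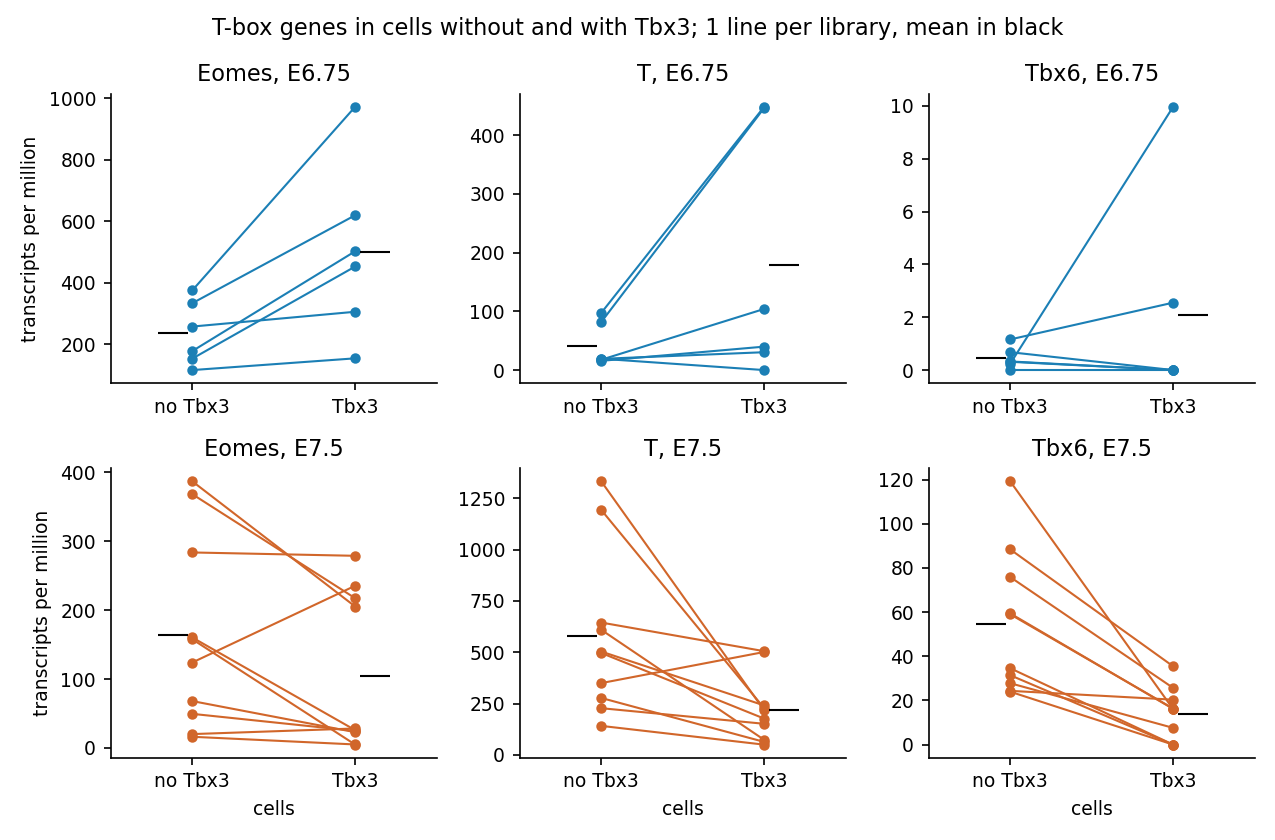
Level of Eomes, T and Tbx6 (CPM, summed within a library) in cells with and without Tbx3, with a line for each library and a black bar for the mean, at E6.75 (6 libraries) and E7.5 (10 libraries). T rises with Tbx3 in 5 of 6 E6.75 libraries and falls in 9 of 10 E7.5 libraries.

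The genes whose levels across cells were most like each member are given as a description, with the mean over libraries of Pearson's r across the cells of a library, of ln(1 + transcripts per 10000). Cells of a library differed in depth. The part of depth and of base composition in these values was not tested, and no p-value is given. At E6.75, over 10621 genes and 6 libraries, Eomes was most like Fst (0.58), Axin2 (0.42) and Dact1 (0.41), both feedback genes of Wnt signalling, and T came 6th (0.39). T was most like Fst (0.55), Evx1 (0.52) and its antisense neighbour Evx1os (0.51), with Sp5 at 0.50 and Mixl1 at 0.49, and Eomes came 15th. Tbx3, in 5 libraries, was most like Gata4 (0.63), Apoc2 and Myo6 (both 0.53).

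At E7.5, over 10563 genes, Eomes was most like Tdgf1 (0.36), Sp5 (0.33) and Epha2 (0.32) in 11 libraries, and T had fallen to the 40th place (0.21). T was most like Fst (0.59), Hoxb1 (0.54) and Hes7 (0.53), a cycling gene of the segmentation clock, and Tbx6 came 4th (0.52). Tbx6, in 8 libraries, was most like Hoxb1 and Hes7 (both 0.66), then Tmem145 (0.60), Aldh1a2 (0.59) and Dll1 (0.58), with T in the 6th place (0.55). Tbx3, in 9 libraries, was most like Hand1 (0.65), Msx2 (0.63), Msx1 (0.62), Prdm6 and Tbx20 (both 0.60). Among the same genes it took place 10384 for Eomes, 10106 for T and 10144 for Tbx6, near the bottom of each order.

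Other genes of the pathway were also compared between stages. Several were near 0 at E6.75 and passed the filter on low counts only through E7.5, where they could only be higher, so the counts below are a description. Among the presomitic genes, Aldh1a2 was at 0.141 ± 0.266 CPM at E6.75 (SD, n = 6) and 48.9 ± 44.8 CPM at E7.5 (SD, n = 11), Foxc2 at 0.221 ± 0.349 and 50.1 ± 24.1 CPM, and Hes7 at 0.460 ± 0.223 and 25.4 ± 13.7 CPM. Pcdh19 rose from 1.85 ± 1.75 to 126.9 ± 39.1 CPM and Dll1 from 1.49 ± 1.46 to 42.0 ± 25.1 CPM. Of 18 presomitic genes in the list 14 were tested and 12 passed, all higher at E7.5. Of 16 lateral and extraembryonic mesoderm genes 14 rose, with Foxf1 at 6.31 on the log2 scale (from 0.307 ± 0.256 CPM) and Hand1 at 3.56. Of 22 streak partners 11 rose and 3 fell, with Nkx1-2, a factor of the caudal streak, up by 6.03, Cdx1 by 4.84, the ligand gene Wnt3a by 4.70 and Rspo3 by 3.36. Of 8 endoderm and axial genes 6 rose. Of 13 pluripotency and ectoderm genes 10 fell and 2 rose, among them Utf1, which fell by 2.70, Pou3f1 by 2.24 and Fgf5 by 2.23.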

How the data were processed

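Per the file headers and values, each of the 18 deposited tables holds expected counts (transcripts corrected for collisions of 4096 molecular barcodes, which the values met within 4.09e-12) for 23093 features, of which 74 are spike-ins and 22 mitochondrial. Per the submitters' processing notes, bcl2fastq 2.17.1.14 and BWA 0.6.2-r126 were used; the genome build, annotation, counting and use of strand are not given in the sources used here. No column was left unmapped. The members and lists were chosen with earlier results of these data known.

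Cells with at least 2000 of the 22997 nuclear genes' transcripts and libraries with at least 10 such cells were kept (Python 3.11.15, numpy 2.4.6, scipy 1.17.1). Cells were clustered per stage with scanpy 1.11.5 and igraph 0.11.9 without the 4 members, and no doublet caller was run. Expected counts were rounded in each cell and then summed within a library, or within a library and gate (cells with against cells without a gene). They were tested with edgeR 4.0.16 (R 4.3.3) after its filter on low counts, with Benjamini-Hochberg adjustment at 0.05. Gated comparisons had the library as a block, and both gates of a library come from the same cells' plate. SE is the absolute log2 change over the square root of F. Gating genes were left out of counts. edgeR fits were tested on simulated data. DESeq2 1.42.0 was an alternative, beside other filters, depths, gates, cell sets and left-out libraries. Confidence intervals are exact at 95% and a count of 0 allows 3 counts; both cover counting error only.

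Named genes were the members, up to 8 genes in each direction with the largest called change, at least 50 CPM and 1 sign in at least 80% of libraries, up to 6 called genes per list, and the 5 genes most alike a member; those named in the text are a selection of these. The visceral endoderm marker filter, the Tbx3 by stage interaction and the joint omission of 2_13 and 2_14 were chosen after seeing the data.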

Additional observations from a re-analysis of the deposited data

Results flagged for a closer look

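In the comparison of cells with and without Tbx3, 1 library stood far from the others for Tbx6 at each stage. At E6.75 the difference in Tbx6 was 9.74 CPM in library 2_14, and the next highest library had 1.39 CPM. At E7.5 it was -103 CPM in replicate 1, and the next lowest had -53.0 CPM. Such a gap was looked for in 31 sets of libraries and found in 2, and chance gives about 1 in 20.

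Tests of the difference between stages passed for 3 measures. The log2 co-detection ratio of Eomes and Tbx3 was lower at E7.5 by -0.51. The log2 change with Tbx3 differed between stages by -1.97 for Eomes and -3.54 for T. The model gave -4.18 for Tbx6, which is no test of a difference: Tbx6 had 22 transcripts at E6.75, entered the model through E7.5, and had -0.14 without 2_13 and 2_14.

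Transcripts of the members were also present outside the kept cells. At E6.75 the 576 barcodes that were not used held 28 Eomes and 9 T transcripts among 81075 in all, and the 33 used barcodes under the minimum held 8 Eomes transcripts among 42111. At E7.5 the 1152 unused barcodes held 31 Eomes, 56 T and 4 Tbx3 transcripts among 119506. The 723 used barcodes under the minimum at that stage held 46 Eomes, 98 T, 16 Tbx6 and 8 Tbx3 transcripts among 261788. No control wells without a cell are named in the labels, so these values are above the limit that a count of 0 allows and no more than that.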

How the results depend on the processing

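The rises of the T and Tbx3 levels between stages kept their direction and call under every alternative that gave a value. So did the lower T and Tbx6 in E7.5 Tbx3 cells and the T and Tbx6 co-detection at E7.5. The rise of Tbx6 between stages also kept its call, but with 22 transcripts at E6.75 only a rise could have been found. Detection limits most other results: thinning to 2000 transcripts left 616 genes called between stages, 8 for T within Eomes cells, 0 for Eomes within T cells (25 of 330 genes at an unadjusted p under 0.05), 2 for Tbx6 within T cells, and 26 and 11 for Tbx3 at E6.75 and E7.5, where fewer genes could be tested. The causes of the other changes were not tested.

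Counts of called genes moved as follows, in the order T within Eomes cells, Eomes within T cells, Tbx6 within T cells, Tbx3 at E6.75 and Tbx3 at E7.5. With no filter on low counts they were 499, 104, 377, 825 and 1165. Without the replicate block they were 92, 0, 61 and, at E7.5, 346 for Tbx3. For Eomes within T cells edgeR then had 202 of 6133 genes at an unadjusted p under 0.05, and DESeq2 with the block called 6. All 61 genes for Tbx6 within T cells were among the 122. DESeq2 called 147 in the first. A gate of at least 2 transcripts gave 12, 203 and 116 for Eomes within T cells, Tbx6 within T cells and Tbx3 at E6.75. For Tbx3 at E6.75 the count was 186 without extraembryonic cells chosen by markers, 173 without those chosen by cluster and 173 without 2_13 and 2_14, and the first comparison gave 104 without that pair. Leaving out 1 library gave 174 to 367, 1 to 8, 75 to 127 and 218 to 423 for the first 4.

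For Eomes, the log2 change between stages passed with no filter (-1.18) and after thinning (-1.50), and ran from -1.36 to -0.85 with 1 library left out. Within T cells split by Tbx6 it reversed without the replicate block (-0.13) and ran from -0.13 to 0.42. With Tbx3 at E6.75 it did not pass without the block (1.08), with the stricter gate (0.66) or without the pair (0.79), where T was 1.39. With Tbx3 at E7.5 it did not pass by DESeq2 (-1.10) or without the block (-0.77) and ran from -1.34 to -0.73. The fall in the share of Eomes cells did not pass at 1000 transcripts (-9.02 points), without extraembryonic cells by cluster (-16.1) or markers (-15.7), or without the pair (-10.0), and ran from -20.9 to -13.9. The share of Tbx3 cells changed sign at 1000 transcripts (-0.258), did not pass with E6.75 libraries of prefix 2 alone (2.82), and ran from 2.50 to 4.07.

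Co-detection ratios depended on depth. T and Tbx6 at E6.75 (-0.04) turned positive at 2000 transcripts (0.18), 10000 transcripts (0.28), a threshold of 2 (0.97) and with no class left out (0.014), and ran from -0.23 to 0.083. Tbx6 and Tbx3 at E6.75 turned to -0.24 at 2000 transcripts and -0.11 without the pair. At E7.5 Eomes and T passed with a threshold of 2 (0.40), Eomes and Tbx6 had -0.27 at 2000 transcripts, 0.11 at 10000 and 0.23 with a threshold of 2, and T and Tbx3 turned to -0.78, -0.50 and -0.19 in these settings and ran from -0.038 to 0.10. Tbx6 and Tbx3 passed at 10000 transcripts (-0.94). Between stages, Eomes and T turned to 0.055 with prefix 2 alone, Eomes and Tbx6 to -1.01 at 2000 transcripts and -0.0014 without the pair, Eomes and Tbx3 did not pass at 2000 transcripts (-0.76) or with prefix 2 alone (-0.48), T and Tbx6 passed without the pair (0.95) and T and Tbx3 with prefix 2 alone (-0.77). The Tbx3 by stage interaction without the pair did not pass for Eomes (-1.82) or Tbx6 (-0.14), and for Tbx6 ran from -4.91 to -2.46.

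No paired analysis between stages was possible because the stages share no replicate numbers. Among single genes named by rule, 1360 values with 1 library left out kept direction and call and 56 did not pass; under the other alternatives 1014 did and 85 did not pass.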

Other observations

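The other T-box genes of the genome were mostly silent in these cells. Of 13 looked for, Mga, a large repressor with a T-box domain, was found in 86.4% of cells at E6.75 and 78.3% at E7.5, at 164 ± 14.1 CPM (SD, n = 6) and 117 ± 24.0 CPM (SD, n = 11), and fell by 0.56 on the log2 scale (edgeR adjusted p 0.000506). Tbx20 was found in 3.13% and 19.8% of cells, at 1.08 ± 1.01 CPM and 22.3 ± 13.3 CPM, and rose by 4.12 (edgeR adjusted p 2.75e-06). Each of the other 11 was found in at most 2.10% of the cells of a stage.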
